A study of Mus musculus with 2 samples.

Results

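The genes described here encode RNA-binding proteins that direct splicing and mRNA fate in the brain. They were chosen by name: symbols starting with Srsf, Hnrnp, Celf, Elavl, Rbfox, Nova1 or Nova2, Ptbp, Mbnl, Rbm followed by a number or x, Adar, or Khdrbs, with at least 1 transcript annotated as protein_coding. Of 109 matching symbols, 8 had no such transcript, which left 101 of the 55536 mouse genes in the tables, in 11 families. The rule used names and annotation and no measured value, but it was set with earlier results of these data known. Total RNA was sequenced from hippocampal tissue of adult female 5xFAD/CAST mice aged 8 to 10 months, as 2 biological replicates of 300 ng RNA each, with ERCC spike-in RNAs. 5xFAD mice carry human transgenes with familial Alzheimer mutations, driven by the neuronal Thy1 promoter, and CAST is a wild-derived inbred strain. Both replicates belong to 1 group, have separate biosample records under the same donor record, and have no control group beside them here. Whether they are separate animals is not settled by the labels, so each SD measures the spread between these 2 libraries and no hypothesis test was run.

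Splicing factors of these families read short motifs in pre-mRNA. SR proteins (Srsf) mostly favour the use of an exon and hnRNPs often oppose it, while Rbfox, Nova, Celf, Mbnl, Ptbp, Elavl and Khdrbs proteins set tissue-specific exon choice, mRNA stability or transport, several of them chiefly in neurons. Adar enzymes convert adenosine to inosine in double-stranded RNA. Many of these genes control their own output by splicing in an exon that holds an early stop codon, or by keeping an intron, so that the transcript is degraded or stays in the nucleus. The Rbm symbols are a naming series and not a family by function. Among them are spliceosome components, a subunit of the exon junction complex (Rbm8a), adaptors of the m6A writer (Rbm15 and Rbm15b), ribosome biogenesis factors (Rbm19 and Rbm28) and a cold-induced protein (Rbm3).

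Replicates 1 and 2 held 27683000 and 32169900 expected counts on mouse genes, and the members took 0.858% and 0.853% of them. Markers fixed for the tissue's cells were present: every one of 8 neuron markers was detected, meaning that its TPM (a level per transcript length, scaled to a fixed library sum) reached 1 in replicate 1 and in replicate 2. Their median was 428 ± 16.5 TPM (SD, n = 2, as for every ± here). All 6 astrocyte, 6 oligodendrocyte, 7 microglia and 5 endothelial markers were detected too, and 5 of 7 for choroid plexus. The choroid plexus marker Ttr, which encodes transthyretin, measured 426 and 146 TPM in the libraries in that order. In bulk RNA of this kind, fewer cells of a type and less RNA per cell cannot be told apart.

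By this rule 95 of the 101 members were detected, against 13251 of 22015 nuclear protein-coding genes. The median over detected members was 36.6 ± 1.49 TPM, beside 15.3 ± 0.06 TPM over all detected nuclear protein-coding genes. Their TPM summed to 5151 in replicate 1 and 5176 in replicate 2. The hnRNPs made up the largest part of this sum, with 1982 ± 15.4 TPM, followed by the Rbm symbols with 841.6 and 826.1 TPM in replicates 1 and 2, the SR proteins with 682 ± 28.3 TPM and the Celf genes with 590 ± 36.6 TPM. Nova genes had the smallest sum, 42.9 ± 1.44 TPM. Mean levels of at least 100 TPM were reached by 13 members, of which 7 were hnRNPs. In the gene table the 6 members below the detection level were Mbnl3, Rbm44, Rbm46, Rbm8a2, Rbm31y and Rbmxl2. For Rbm31y, a gene of the Y chromosome, and Rbmxl2, a relative of Rbmx known from the testis, the gene table had no count in either library, so that a level below 3 counts (0.108 CPM, counts scaled to library size, in replicate 1 and 0.0933 CPM in replicate 2) was not detectable at this depth. Rbm46, known from germ cells, had 13 and 30 counts. The kallisto-layout table is a further transcript table described below. It gave Rbmxl2 4 and 6 counts, and Mbnl3 2.09 and 1.65 TPM, so Mbnl3 was detected there. Of this Mbnl3 TPM, 97.8% and 98.7% was on Mbnl3-206, a model annotated as keeping an intron.

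**Figure D1:**
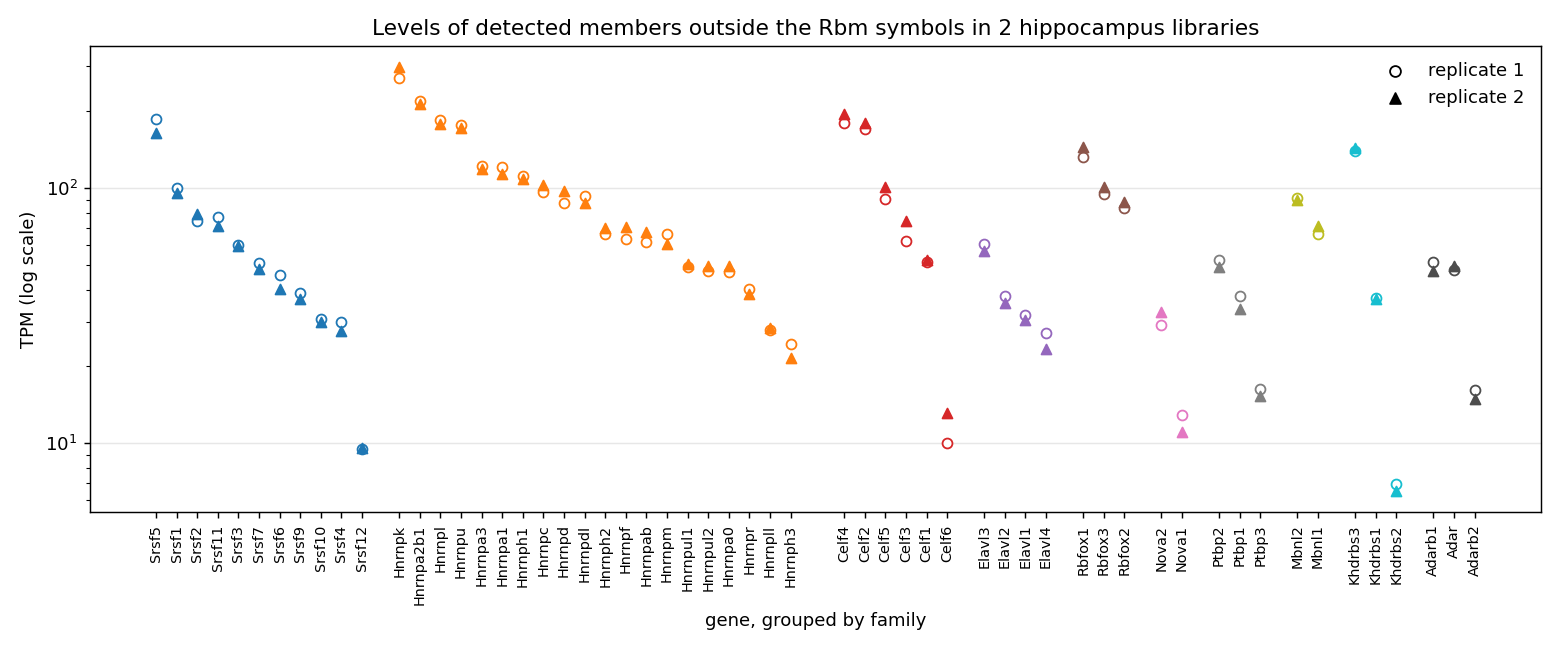
TPM on a log axis for each detected member outside the Rbm symbols, ordered by family and by level within it. Open circles are replicate 1 and filled triangles replicate 2. The libraries lie close to each other for every gene compared with the spread between genes, and levels run from Hnrnpk at 268 and 297 TPM down to Khdrbs2 at 6.91 and 6.53 TPM.

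A large part of the members' TPM lay on transcripts that the annotation does not class as protein_coding. These are mostly nonsense_mediated_decay transcripts, whose stop codon lies ahead of an exon junction, retained_intron transcripts, and processed_transcript models with no reading frame. Models of any other class count too, as in Rbm33, where such a model held 26.8% and 25.5% of TPM. Over the 89 members whose gene TPM reached 5 in each library, 30.2% ± 1.67 of the summed TPM was outside protein_coding, beside 17.2% ± 0.69 over the 10402 nuclear protein-coding genes at that level. The part on nonsense_mediated_decay transcripts was 8.33% ± 0.19 in members and 2.74% ± 0.06 in all these genes, and that on retained_intron transcripts 15.3% ± 0.83 and 8.90% ± 0.57. A share of at least 25% in both libraries was found in 46 of 89 members (51.7%), beside 27.5% of all genes tested. At least 10% on nonsense_mediated_decay transcripts was found in 18 members (20.2%), beside 8.3%, and at least 10% on retained_intron transcripts in 35 (39.3%), beside 31.5%.

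These shares depend on how a transcript is weighed. At a threshold of 50%, 13 members passed, beside 8.83% of all genes. As a share of expected counts, which gives long transcripts more weight than TPM does, 27 of 89 members reached 25%, beside 14.3% of all genes. The number of annotated transcripts moved with the share too. Of genes with 4 to 6 transcripts, 16 of 29 members and 23.7% of all genes reached 25%. With 7 to 9 these were 7 of 12 members and 36.3%, with 10 to 14, 11 of 20 members and 50.1%, and with 15 or more, 11 of 14 members and 57.0%. At 10 to 14 transcripts the members lay near the background. Of those with 1 to 3 transcripts, 1 of 14 members and 8.00% of all genes did. Among genes with any transcript annotated outside protein_coding, the counts were 46 of 75 members (61.3%) and 33.4% of all genes. Total RNA also holds unspliced RNA, and its part in the shares was not tested.

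**Figure D2:**
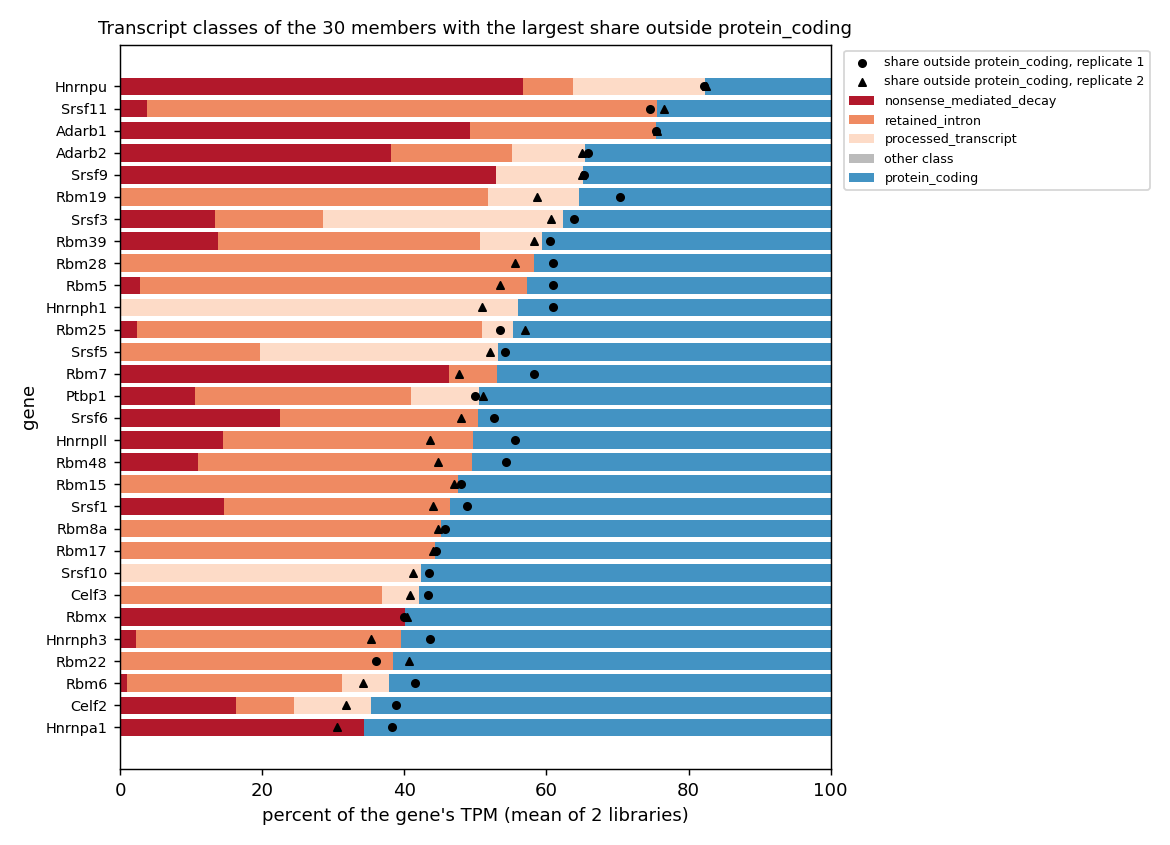
Percent of each gene's TPM by transcript class, as the mean of 2 libraries, for the 30 members with the largest share outside protein_coding. Black circles and triangles mark that share in replicates 1 and 2. Hnrnpu heads the plot with 82.1% and 82.5%, and its bar is mostly nonsense_mediated_decay, while that of Srsf11 is mostly retained_intron.

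All 11 genes of the SR proteins (Srsf) were detected, and 10 of them had at least 25% of their TPM outside protein_coding in both libraries, the exception being Srsf12 with no TPM there. Of all genes, 27.5% passed by TPM. In the kallisto layout 9 of 11 Srsf genes passed, beside 32.6% of all genes, and on expected counts 7, beside 14.3%. The most abundant were Srsf5 with 186 and 164 TPM in replicates 1 and 2, Srsf1 with 99.9 and 95.5 TPM, Srsf2 with 74.0 and 79.1 TPM, and Srsf11 with 76.9 and 71.1 TPM. Srsf1 and Srsf2 are the textbook SR proteins of constitutive splicing. Srsf2 and Srsf11 overlapped in level between libraries, while Srsf5 was above Srsf1 in both. Srsf3 (59.6 and 59.1 TPM), Srsf7 (51.0 and 48.4), Srsf6 (45.6 and 40.2), Srsf9 (39.0 and 36.8), Srsf10 (30.57 and 29.96) and Srsf4 (29.8 and 27.5) followed. Srsf12 was lowest, at 9.47 and 9.59 TPM.

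Within the Srsf genes the kind of transcript differed from gene to gene. Srsf11 had 71.74% ± 2.997 of its TPM on retained_intron transcripts. Srsf9 had 50.6% and 55.2% on 1 nonsense_mediated_decay transcript, Srsf9-205, against 34.7% and 33.3% on its leading coding transcript Srsf9-201. In Srsf10 the processed_transcript class held 42.4% ± 1.59, all of its TPM outside protein_coding, and 1 model of this class each held 31.9% ± 4.55 of Srsf3 and 28.5% ± 2.12 of Srsf5. Both models are short, 518 and 886 bases, and as a share of expected counts they held 7.68% and 6.14% of Srsf3, and 16.3% and 14.5% of Srsf5. Srsf1 and Srsf2 had 31.8% ± 4.797 and 30.5% ± 2.91 on retained_intron transcripts. Srsf7 had 27.5% ± 3.01 of this class. On expected counts the Srsf10 share was 11.7% and 10.3%, and the Srsf1 share 11.3% and 8.82%. Those of Srsf2 (32.6% and 29.7%) and Srsf7 (31.1% and 25.9%) changed little.

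In Srsf3, Srsf6, Srsf9 and Rbm7 the stop codon of the nonsense_mediated_decay transcript lies in an exon that its closest coding transcript lacks. Srsf9-205 gains a further exon of 105 bases as well and shares 2 of its 5 introns with that transcript, and the stop of Srsf6-201 is also used by another transcript annotated as coding. These exons were singled out after their values were seen. The stretches are shown so that the stop codon can be seen in the exon. Each runs from the last 15 bases of the exon before through the stop codon, which is in capitals, read from the GENCODE M21 transcripts on mm10, 5′ to 3′.
Srsf3-201: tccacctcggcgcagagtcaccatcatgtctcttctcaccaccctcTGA
Srsf6-201: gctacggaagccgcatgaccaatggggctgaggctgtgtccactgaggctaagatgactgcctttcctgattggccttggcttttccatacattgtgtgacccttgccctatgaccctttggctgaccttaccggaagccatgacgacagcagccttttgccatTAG
Srsf9-205: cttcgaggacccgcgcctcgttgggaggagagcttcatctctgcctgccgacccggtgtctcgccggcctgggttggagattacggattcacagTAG
Rbm7-204: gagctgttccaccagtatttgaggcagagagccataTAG

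The Srsf3 exon lies at chr17:29039454-29039909 on the plus strand and is 456 bases long, with its stop 34 bases in. Of the TPM on Srsf3 transcripts that either contain this exon or splice over it, 26.3% and 24.1% was on transcripts that contain it. These 2 kinds held 7.70 and 21.6 TPM of the gene's 59.6 TPM in replicate 1, and 8.06 and 25.4 of 59.1 TPM in replicate 2. A further 6 Srsf3 transcripts do neither, as do 2 of Srsf6, 1 of Srsf9 and 1 of Rbm7 for their own exons. The Srsf6 exon (chr2:162932815-162933082, plus strand, 268 bases) was contained in 31.1% ± 4.03. Both exons were thus on the lesser part of the transcripts that contain them or splice over them. The Srsf9 exon (chr5:115328347-115328704, plus strand, 358 bases) was contained in 59.0% and 66.1%. Of the transcripts that contain it, Srsf9-205 is annotated with an mRNA start not found. The Rbm7 exon (chr9:48494283-48494387, minus strand, 105 bases) was contained in 54.8% and 44.5%. Rbm7 belongs to a complex that hands nuclear RNA to the exosome. For Srsf6 the measure mattered: on expected counts its exon was contained in 19.1% and 15.3%, since Srsf6-201 has 1666 bases and Srsf6-203, which splices over it, 3527.

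**Figure D3:**
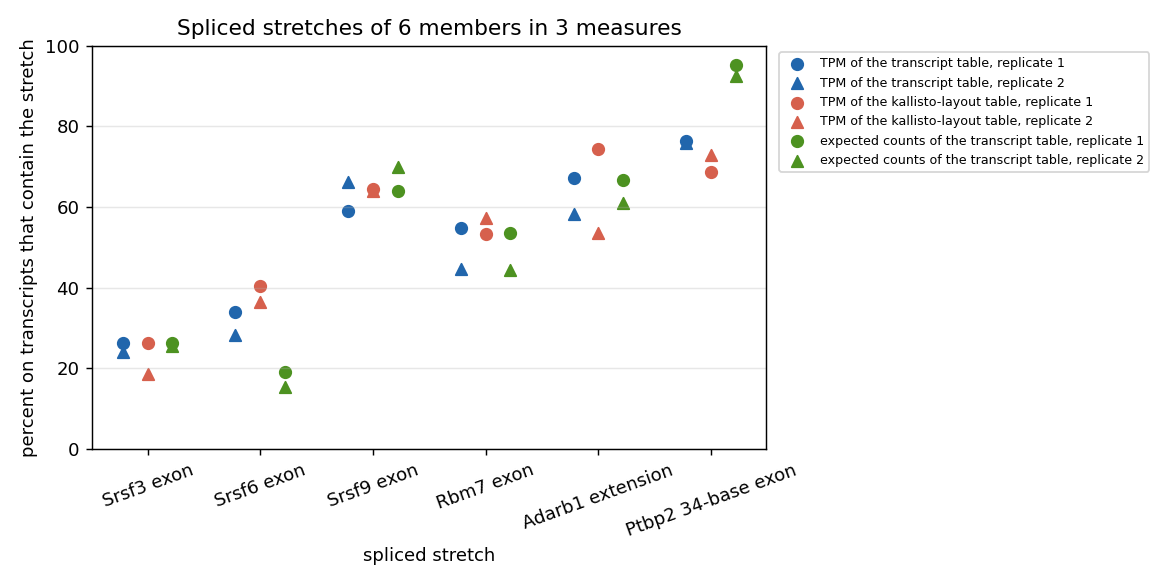
Percent of TPM or expected counts on transcripts that contain each spliced stretch, out of transcripts that contain it or splice over it, for 6 members. Circles are replicate 1, triangles replicate 2, and colours are the 3 measures. The Srsf3 exon stays between 18.5% and 26.3%, while the Ptbp2 exon lies between 68.7% and 95.2% and the Adarb1 extension between 53.6% and 74.4%.

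The hnRNPs, which coat nascent transcripts, held the 2 highest levels of all members. Hnrnpk, a poly(C)-binding protein, had 268 and 297 TPM in replicates 1 and 2. Hnrnpa2b1 had 220 and 213 TPM, Hnrnpl 184 and 177 TPM, and Hnrnpu, a nuclear scaffold protein, 177 and 172 TPM. Hnrnpk was above the other hnRNPs in both libraries, and the ranges of Hnrnpl and Hnrnpu did not overlap by a small margin. Hnrnpa3 (122 and 119 TPM), Hnrnpa1 (121 and 113) and Hnrnph1 (111 and 108) followed, then Hnrnpc (96.2 and 103), Hnrnpd (87.3 and 97.5) and Hnrnpdl (93.2 and 87.7). Hnrnph2 had 66.1 and 69.6 TPM and Hnrnpf 62.9 and 70.5 TPM. All 20 hnRNP genes were detected, the lowest being Hnrnph3 with 24.5 and 21.5 TPM.

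The hnRNP genes differed from each other in transcript classes. At least 25% of TPM was outside protein_coding in 11 of 20, beside 27.5% of all genes. In the kallisto layout 9 of 20 passed, beside 32.6% of all genes, and on expected counts 5, beside 14.3%. Hnrnpa0, Hnrnpab, Hnrnpf and Hnrnph2 (4 of 20) had none there, beside 19.8% of all genes. Hnrnpu had the largest share of all members, 82.1% and 82.5%, and its leading transcript was Hnrnpu-206 of the nonsense_mediated_decay class, with 43.3% and 44.0%, against 17.9% and 17.5% for the coding Hnrnpu-201. Hnrnpu-206 has 17 exons, shares 12 of its 16 introns with Hnrnpu-201, and ends its reading frame 183 bases before its last exon junction. On expected counts the order of these transcripts was reversed, with 40.8% and 42.4% on Hnrnpu-206 and 46.4% and 46.3% on Hnrnpu-201, whose 7640 bases compare with 2844. Hnrnph1, a factor that binds G-rich runs, had 61.0% and 50.9% outside protein_coding, all of it in the processed_transcript class. Its leading coding transcript Hnrnph1-201 had 37.9% and 48.9%.

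Hnrnpa1, whose protein opposes SR proteins at splice sites, had 38.2% and 30.6% outside protein_coding, mostly on Hnrnpa1-203 (27.6% and 19.2%) and Hnrnpa1-204 (10.6% and 11.3%). Both keep the stop codon of their closest coding transcript and carry introns after it. This was so for 6 of the 20 nonsense_mediated_decay transcripts that held at least 10% of a member's TPM in both libraries, the others being Hnrnpd-208, Khdrbs1-202, Khdrbs3-204 and Adarb2-203. In 5 the stop lay in an exon that the coding transcript lacks, and 8 of the 20 are annotated with an mRNA start not found. The distance from stop to last junction ran from 69 to 1801 bases over the 20.

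The polypyrimidine tract binding proteins repress exons, and Ptbp1 is known to be replaced by Ptbp2 as neurons form. Ptbp2 had 52.1 and 49.0 TPM in replicates 1 and 2, Ptbp1 37.7 and 33.6 TPM and Ptbp3 16.4 and 15.3 TPM. The 3 levels did not overlap. Ptbp1 is known to make cells skip a short exon of Ptbp2, which shifts the frame and marks the transcript for decay. That exon is 34 bases long, at chr3:119724612-119724645 on the minus strand, and is shown in capitals between the 15 bases on either side in the coding transcript. Below it is the transcript that skips it, up to the stop codon in capitals.
Ptbp2-213: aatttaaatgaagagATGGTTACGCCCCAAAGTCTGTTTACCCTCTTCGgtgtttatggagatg
Ptbp2-206: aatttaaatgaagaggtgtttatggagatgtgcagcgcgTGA

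Of the TPM on Ptbp2 transcripts that contain or skip this exon, 76.5% and 75.9% contained it. By expected counts the share was 95.2% and 92.6%, and by the kallisto-layout table, described below, 68.7% and 72.9%. The exon was thus on the greater part of the transcripts that contain or skip it in each measure, and 7 further Ptbp2 transcripts do neither. Ptbp2-206, a model of 576 bases annotated with an mRNA start not found, held 17.7% and 14.1% of the gene's TPM. Ptbp1 had 49.9% and 51.1% of its TPM outside protein_coding (23.4% and 34.5% in the kallisto layout, which does not pass 25% in both), with 30.3% ± 5.63 on retained_intron transcripts, and the largest share of a single Ptbp1 transcript was 12.7% in replicate 1 and 16.8% in replicate 2.

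The Celf genes include the most abundant neuronal factors of the set. Celf4 had 179 and 196 TPM, Celf2 171 and 179 TPM, Celf5 90.9 and 101 TPM, and Celf3 61.8 and 74.4 TPM. Celf1, which is widely expressed and destabilises GU-rich mRNAs, had 51.2 and 52.3 TPM, and Celf6 10.0 and 13.1 TPM. Celf4 and Celf2 were close, with the lowest Celf4 value just above the highest of Celf2. All other steps in this order exceeded the spread in the gene table. In the kallisto layout the order of Celf5 and Celf3 was reversed, with 78.9 and 89.0 TPM for Celf5 and 89.6 and 96.3 TPM for Celf3. Celf2, Celf3 and Celf5 passed the 25% share, and Celf4 lay at its edge with 25.7% and 24.3%. In the kallisto layout Celf4 passed (30.4% and 27.8%) and Celf5 did not (10.9% and 9.89%), and on expected counts Celf3 alone did. Celf2 held 16.4% ± 2.19 on the nonsense_mediated_decay transcript Celf2-228, and Celf3 36.9% ± 3.16 on retained_intron transcripts. Celf4-202 was the leading Celf4 transcript with 50.1% and 50.8%, and Celf5-201 that of Celf5 with 62.8% and 60.1%.

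The Rbfox genes bind GCATG motifs, and Rbfox3 is the neuronal nuclear antigen NeuN. Rbfox1 had 132 and 144 TPM, Rbfox3 94.8 and 101 TPM, and Rbfox2 83.8 and 88.1 TPM, and these ranges did not overlap. None of the 3 had more than 4.90% of its TPM outside protein_coding, but in the kallisto layout Rbfox3 had 22.1% and 7.67% and Rbfox2 7.59% and 4.27%. Their transcripts were instead spread over coding models: Rbfox1-201 held 58.6% and 59.5% of Rbfox1, and Rbfox1-205 held 30.5% and 31.2%. Rbfox3-205, Rbfox3-204 and Rbfox3-203 held 32.6%, 29.2% and 24.5% of Rbfox3 on average. Rbfox2-203 held 49.6% and 46.3% of Rbfox2.

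The Elavl genes encode Hu proteins that stabilise AU-rich mRNAs. Elavl3 had 60.3 and 56.9 TPM, Elavl2 37.7 and 35.6 TPM, the widely expressed Elavl1 31.9 and 30.5 TPM, and Elavl4 27.1 and 23.3 TPM. The 4 ranges did not overlap in the gene table. In the kallisto layout Elavl4 (34.7 and 31.0 TPM) was above Elavl1 (31.2 and 29.4 TPM) in each library, and their ranges overlapped. None of the 4 passed the 25% share in both libraries. Elavl4 came nearest with 36.10% and 24.96%, mostly on Elavl4-211, a processed_transcript model of 869 bases. In the kallisto layout Elavl4 passed, with 46.7% and 41.1%, while on expected counts it had 9.69% and 5.97%. Elavl3 had no TPM outside protein_coding.

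The Nova proteins were first known as targets of autoimmunity in neurological disease and bind YCAY clusters. Nova2 had 29.0 and 32.8 TPM and Nova1 12.9 and 11.1 TPM. Nova2-201 and Nova2-202 are identical over 8372 bases, so the even split between them is set by the annotation. Nova1-201 held 50.5% and 56.9% of Nova1. Mbnl2 had 91.1 and 89.4 TPM and Mbnl1 66.1 and 71.1 TPM. Both encode muscleblind proteins, which CUG repeats sequester in myotonic dystrophy, and Mbnl3 had 1 count in each library in the gene table but 209.5 and 187.7 in the kallisto layout. The level of Mbnl3 thus rests on the table chosen, and in the kallisto layout 97.8% and 98.7% of it was on the retained_intron Mbnl3-206. Mbnl2 passed the 25% share with 33.0% and 29.3%, but not in the kallisto layout, with 15.6% and 10.9%. Mbnl1 did not pass, with 28.6% and 21.7%.

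The Khdrbs genes encode the STAR proteins Sam68 (Khdrbs1), SLM1 (Khdrbs2) and SLM2 (Khdrbs3), which control neurexin splicing. Khdrbs3 had 140.0 and 143 TPM, Khdrbs1 37.2 and 36.6 TPM, and Khdrbs2 6.91 and 6.53 TPM. Khdrbs3 was far above the other two. Much of its TPM, 43.7% and 40.4%, was on Khdrbs3-205, a coding model of 501 bases that held 16.6% and 14.3% of its expected counts. Khdrbs3-204 and Khdrbs1-202, both nonsense_mediated_decay transcripts that keep the usual stop, held 18.9% and 15.7% of Khdrbs3 and 20.2% and 15.8% of Khdrbs1. Neither gene passed the 25% share in both libraries by TPM, while on expected counts Khdrbs3 did, with 35.99% and 28.83%.

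Of the adenosine deaminases, Adarb1 (ADAR2, which edits the glutamate receptor Gria2) had 51.3 and 47.3 TPM, Adar (ADAR1) 47.8 and 49.4 TPM, and Adarb2, which lacks known activity, 16.2 and 14.9 TPM. Adarb1 and Adar overlapped and Adarb2 was lower in both libraries. All 3 passed the 25% share, beside 27.5% of all genes. Adarb1 had 75.4% and 75.5% of its TPM outside protein_coding, and by expected counts, 70.9% and 69.2%. Adarb2 had 65.8% and 65.0%, led by Adarb2-203 with 37.6% and 38.6%. Adar had 29.1% and 27.7% of TPM but 4.90% and 4.23% of expected counts, since its coding transcript Adar-202 is 5909 bases long.

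The Adarb1 transcripts Adarb1-203 and Adarb1-206 carry a 47-base extension at the start of a coding exon, at chr10:77322584-77322630 on the minus strand. ADAR2 is known to edit its own pre-mRNA and thereby create a splice site that lengthens this exon and shifts the frame. Editing was not measured here. The extension is shown in capitals between the 15 bases on either side, since the Adarb1-203 and Adarb1-206 models carry it and the coding models here do not. Adarb1-205, also of the nonsense_mediated_decay class, splices past it.
Adarb1-203: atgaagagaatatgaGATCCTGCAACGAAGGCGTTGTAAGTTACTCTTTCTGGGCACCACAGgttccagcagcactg

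Of the TPM on Adarb1 transcripts that contain the extension or splice past it, 67.2% and 58.2% contained it. By expected counts it was 66.8% and 61.1%, and in the kallisto layout 74.4% and 53.6%. The extension was on the greater part of these transcripts in each library and measure, and 5 further Adarb1 transcripts do neither. Adarb1-203 and Adarb1-206 themselves were poorly told apart: Adarb1-203 held 29.8% and 17.9% of the gene's TPM and Adarb1-206 21.3% and 26.4%, and the posterior SD of the Adarb1-206 count was 31.5% of the count in replicate 1.

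The Rbm symbols had lower levels, with a median of 17.4 ± 0.26 TPM over the 38 of 43 that were detected. Rbm39, a splicing factor related to U2AF, had 146 and 134 TPM, well above all others. Rbm5 had 61.4 and 59.8 TPM, Rbm25 54.9 and 53.4 TPM and Rbm3 52.5 and 56.2 TPM. Rbm25 and Rbm3 overlapped. Rbm4 (37.8 and 37.0 TPM), Rbm17 (37.4 and 34.8), Rbm42 (32.1 and 30.8), Rbm33 (27.6 and 26.5), Rbm6 (27.3 and 26.5), Rbmx (25.7 and 27.9), Rbm26 (25.5 and 25.8) and Rbm8a (23.81 and 21.95) came next. Rbm20, known for titin splicing in the heart, had 1.57 and 1.78 TPM.

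Retained_intron transcripts held at least 10% of TPM in both libraries in 15 of 32 Rbm genes at the level tested, beside 31.5% of all genes. Rbm28 had 58.2% ± 3.73, Rbm5 54.4% ± 3.28, Rbm19 51.7% ± 0.59 and Rbm25 48.5% ± 2.57 of this class. On expected counts these shares averaged 28.3%, 61.5%, 12.4% and 35.1% in the same order. In the kallisto layout they averaged 58.0%, 58.2%, 35.8% and 50.3%. Rbm39 had 60.4% and 58.3% outside protein_coding, spread over many models. Its leading transcript, a coding model of 2580 bases, held 17.4% and 21.04%, followed by the coding Rbm39-203 with 15.9% and 18.8%. Rbm15 was nearly evenly divided between the coding Rbm15-201, with 52.0% and 53.0%, and the retained_intron Rbm15-202, with 48.0% and 47.0%. In Rbm8a, the retained_intron Rbm8a-204 led with 40.3% and 43.4% of TPM, but this model of 560 bases held 11.8% and 12.5% of expected counts. In Rbm7 and Rbmx a nonsense_mediated_decay transcript led, Rbm7-204 with 50.7% and 42.0% and Rbmx-205 with 39.9% and 40.4%. A transcript outside protein_coding was the leading one in 8 of the 89 members, beside 7.08% of all genes, the other genes being Adarb2, Elavl4, Hnrnpu, Rbm8a, Srsf5 and Srsf9. Of the 32, 8 Rbm genes had no TPM outside protein_coding, among them Rbm10, Rbm26 and Rbm45, beside the same 19.8% of all genes.

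Between the libraries the members differed little. Ratios are log2 of replicate 2 over replicate 1, from CPM after TMM scaling with a prior count of 2. No member of the 93 with a mean count of at least 100 differed by 2-fold or more, beside 0.29% of all genes at that count. The median ratio over the 96 members with a mean count of at least 10 was 0.01, and the median size of the ratio 0.07, beside 0.10 over nuclear protein-coding genes. The largest at 100 counts or more were Rbm41 with -0.28, Rbm11 with 0.22, Adarb1 with -0.21 and Rbm45 with 0.20. Below 100 counts, Rbm46 had 0.92 and Rbm38 0.65, from 60 and 109 counts for Rbm38.

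Some families lay to one side of 0. Of 14904 nuclear protein-coding genes with a ratio, 8414 were above 0 and 6490 below, with a median of 0.02. All 6 Celf genes had a ratio above 0, from 0.08 to 0.14, as did the 3 Rbfox genes, from 0.03 to 0.14, and the 3 Khdrbs genes, of which Khdrbs1 was at 0.00 and lay below 0 under library size alone. Among Srsf genes 7 of 11 were below 0, with a median of -0.04 and Srsf5 at -0.16, and Hnrnph3 had -0.16, Ptbp1 -0.15, Nova2 0.18 and Khdrbs2 0.19. Cell type markers moved in the same comparison. All 8 neuron markers were above 0 with a median of 0.15, all 6 oligodendrocyte markers below 0 with a median of -0.26, all 6 astrocyte markers below 0 with a median of -0.07, 5 of 7 microglia markers below 0 with a median of -0.11, 4 of 5 endothelial markers above 0 with a median of 0.08, and all 7 choroid plexus markers below 0 with a median of -1.54. Their part in the ratios of the members was not tested. Under spike-in scaling the Srsf, Rbm and Mbnl medians turned to 0.02, 0.01 and 0.05. Under library size alone the Hnrnp, Elavl and Ptbp medians were each -0.01, while the median over all members became -0.02.

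**Figure D4:**
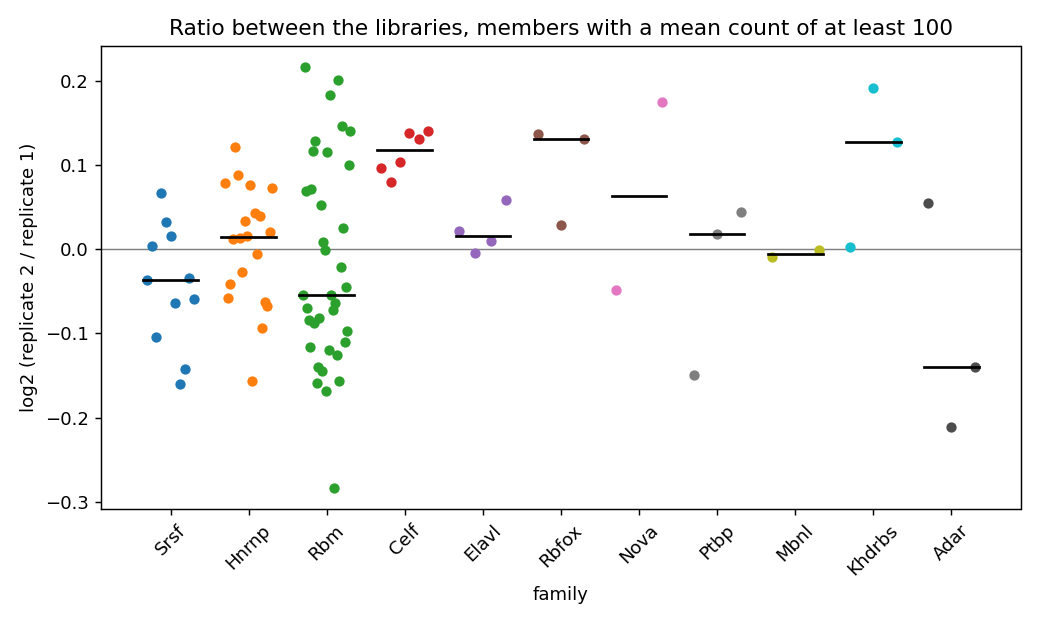
log2 ratio of replicate 2 over replicate 1 for each of the 93 members with a mean count of at least 100, by family. Black lines are family medians of the plotted genes and the grey line is 0. All points lie between -0.28 and 0.22, and the Celf and Rbfox points all lie above 0.

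The authors deposited a further transcript table in the column layout of kallisto, made from the reads and not from the alignment file behind the gene table, per its readme. Summed to genes and centred on the median over protein-coding genes, none of the 89 members differed by 2-fold or more in both libraries between this table and the gene table, beside 0.347% of genes tested. Rbm14, a paraspeckle protein, differed most, with a log2 ratio of kallisto over gene table of -0.74 and -0.63 in replicates 1 and 2. Hnrnpk had 268 and 297 TPM in the gene table and 379 and 414 TPM in the kallisto layout. Celf3 (0.53 on average), Ptbp1 (0.48), Elavl4 (0.46), Khdrbs2 (0.42), Rbm8a (0.41) and Hnrnpf (0.37) were also higher in the kallisto layout.

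The leading transcript differed between the tables in 20 of 87 members with more than 1 transcript (23.0%), beside 17.6% of all genes. In Hnrnpa2b1, Hnrnpa2b1-204 held 30.6% and 37.1% in the transcript table and 0.02% and 0.15% in the kallisto layout, where Hnrnpa2b1-203 held 53.3% and 53.9%. Mbnl2-205 held 20.8% and 19.8% in the first and was at 0 in the second. Srsf3-208, a model of 319 bases, was at 0% and 3.66% in the first and 37.8% and 47.9% in the second. Transcript shares of these genes therefore rest on the table chosen. The share of at least 25% outside protein_coding was reached by 45 members in the kallisto layout, beside 32.6% of all genes, and 40 members reached it in both tables. The share of all genes reaching it in both tables was not computed, so these 40 cannot be set against a background. Celf5, Hnrnpd, Hnrnpm, Mbnl2, Ptbp1 and Srsf4 reached it by the first table only, and Celf4, Elavl4, Khdrbs2, Nova1 and Rbm4b by the kallisto layout only.

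**Figure D5:**
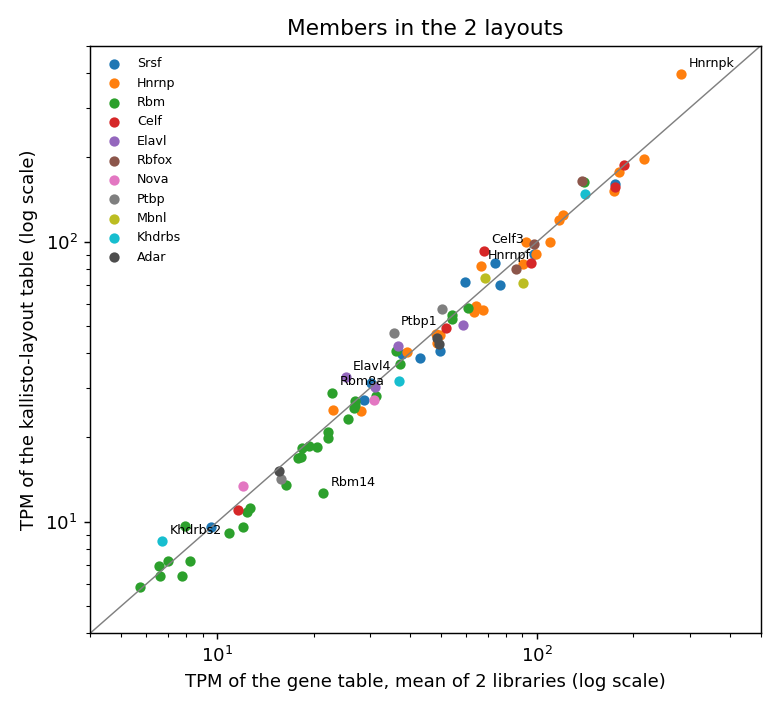
Mean TPM of each of 89 members in the gene table against that in the kallisto layout, both axes log, coloured by family, with the line of equality. Most points lie on the line, Hnrnpk, Celf3 and Ptbp1 lie above it, and Rbm14 lies below.

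The posterior SD of the gene's count, given by the authors' deposited tables, was largest relative to the count for Rbm8a2 (32.4% on average, with 2 and 1 counts), Rbm12b1 (3.91%), Rbm12b2 (2.92%), Rbm4 (2.86%), Rbm4b (2.56%), Rbm12 (2.45%), Hnrnpa1 (1.54%) and Hnrnpa3 (1.07%). Rbm12b1 with Rbm12b2, and Rbm4 with Rbm4b, are pairs of close copies, whose levels are uncertain where the counting could split reads between them. The part of shared reads in these SDs was not tested. Their levels were 6.52 and 7.49 TPM for Rbm12b1, 8.01 and 7.55 TPM for Rbm12b2, and 6.22 and 7.03 TPM for Rbm4b.

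Partners of these proteins were measured from 6 lists. All 9 genes for SR protein kinases and related phosphorylation were detected, with a median of 34.8 ± 0.50 TPM, led by Srpk2 (61.0 and 59.1 TPM), Clk1 (61.7 and 56.9) and Clk4 (57.0 and 53.3). Of the 8 at the level tested, 7 had at least 25% of TPM outside protein_coding, and Clk1, a kinase known to keep introns in its own transcript, had 94.5% and 92.0%. All 14 SR-related splicing proteins were detected, led by Srrm2 (252 and 221 TPM), Son (112 and 105) and Luc7l2 (91.4 and 85.5), and 10 of 14 passed the 25% share. All 25 core spliceosome genes were detected, led by Snrnp70 (184 and 170 TPM), Sf3b2 (90.5 and 89.0) and Sf1 (86.9 and 92.0), and 7 of 25 passed. Beside these counts stand 10 of 11 for the Srsf genes and the 27.5% of all genes.

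Of 6 exon junction complex genes, led by Rnps1 (50.7 and 53.8 TPM), Eif4a3 (35.9 and 39.2) and Pnn (24.1 and 26.4, which is also on the list of SR-related proteins), none of 5 passed the 25% share. Of 10 nonsense-mediated decay factors, among them Smg5 (35.7 and 30.2 TPM) and Smg1 (27.3 and 29.8), 2 of 10 passed, with a median level of 15.4 ± 0.40 TPM. Of 26 other neuronal and disease RNA-binding proteins, led by Matr3 (232 and 229 TPM) and Qk (201 and 197), 13 passed. Of all genes, 27.5% passed. Ratios between the libraries had medians from -0.05 in the SR-related proteins to 0.05 in the core spliceosome, with 5 of 14 and 16 of 25 genes above 0.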

How the data were processed

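Per the file headers, tables in RSEM layout deposited for genes and transcripts hold expected counts, TPM and the count's posterior SD, and a transcript table in kallisto layout holds estimated counts and TPM. The readme names mm10 and GENCODE M21. No aligner or quantifier is named in the sources used here, and no CAST sequence was used. Members, lists and transcript settings were chosen with earlier results of these data known. Levels are the deposited TPM. Expected counts were rounded and scaled by TMM in edgeR 4.0.16 (R 4.3.3), and DESeq2 1.42.0 gave an alternative. Shares, sums and structures were computed with Python 3.11.15, numpy 2.4.6 and pandas 2.3.3, and plots with matplotlib 3.10.9. The ratio and share steps were tested on simulated data. Spike-ins stayed out of library sizes. No molecular identifiers are named for the reads, so floors cover counting error only.

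Named were all members outside Hnrnp and Rbm, the 12 highest of each of those, family extremes, the 12 largest shares outside protein_coding, the 8 largest layout differences and posterior SDs, and the 3 highest of each list, of which some are not reported here. Other names were chosen after values were seen.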

Additional observations from a re-analysis of the deposited data

How the results depend on the processing

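The number of members detected, the 2-fold counts between libraries and between tables, and the number of differing leading transcripts stayed within 1.5 times of the reported count under the alternatives run. With 1 library left out, 95 members were detected, 21 to 25 leading transcripts differed, 46 to 51 members passed the 25% share, the median share was 26.7% to 27.5%, and the members' TPM summed to 5151 to 5176. That sum was 5194 in the kallisto layout and 11546 when TPM was rescaled to nuclear protein-coding genes. The number passing the share was 27 on expected counts and 13 at a threshold of 50%, where 8.83% of all genes passed. The median share outside protein_coding was 27.1%, and moved to 27.9% in the kallisto layout, 12.9% on expected counts and 29.3% at a gene TPM of at least 20. The restriction to genes with an annotated transcript outside protein_coding and the alternatives for the 10% shares were chosen after seeing the data. On expected counts 13 members passed 10% on nonsense_mediated_decay transcripts, in place of 18. The share of all genes passing on expected counts was not computed, so these 13 cannot be set against a background. No paired analysis was possible because the 2 replicates form 1 group. The depth limits ratios below 100 counts.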
